A study of Homo sapiens with 6 samples.

Results

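The coagulation and fibrinolysis genes are 36 genes chosen by name, from prothrombin (F2) to beta-2-glycoprotein I (APOH). All 36 were found among the 60623 genes in the files, and 30 of them had at least 1 TPM (a gene's share of all transcripts, scaled to its length and to a fixed sum) in 3 or more of the 6 libraries, so that they entered the test. The libraries came from cells labelled as hepatoblasts at day 19 of a hepatocyte differentiation that starts from the human embryonic stem cell line H9. HFPO-TA, a fluorinated ether acid whose full name is hexafluoropropylene oxide trimer acid, was given to the cells of 3 libraries, and 0.1% DMSO, the vehicle, to the cells of the other 3. The HFPO-TA dose is printed as 10 in the labels, where its unit is garbled, and the labels record a share of DMSO for the control alone, so whether the HFPO-TA cells received the vehicle is not known. All libraries thus came from 1 cell line with no animal or donor behind a replicate, and nothing in the labels tells whether replicates were separate cultures. What the p-values weigh is therefore the spread from library to library, and part or all of it may be technical.

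Blood clots when a chain of serine proteases, most of them made by hepatocytes as inactive precursors, ends in thrombin, which turns fibrinogen into fibrin. Several of these precursors, and the anticoagulant proteins C, S and Z, carry a Gla domain whose glutamates are carboxylated in the endoplasmic reticulum with vitamin K. Serpins and tissue factor pathway inhibitor hold the proteases in check, and plasmin, made from plasminogen by tissue or urokinase-type activator, dissolves the clot. The adult liver secretes most of the plasma proteins of all 3 arms, while tissue factor, thrombomodulin, von Willebrand factor and the plasminogen activators are known mostly from other cells. The comparison asks how these genes differed between HFPO-TA and DMSO cells, in a series titled for the liver toxicity of HFPO-TA.

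The libraries had 15383 to 15905 genes at 1 TPM or more, and their values summed to between 995690 and 996186, which is why the columns were read as TPM although their header says FPKM. TPM keeps no sequencing depth, so no counting error can be given. The 8 hepatocyte and hepatoblast markers, led by AFP, summed to 97738 to 106304 TPM with HFPO-TA and 104933 to 116148 TPM with DMSO, so markers of the labelled cell type were present. AFP, the fetal protein, stood far above ALB, albumin, which had 54.1 to 73.5 TPM with HFPO-TA and 101 to 129 TPM with DMSO. Stromal markers were present as well, at a sum of 1000 to 2161 TPM with HFPO-TA and 1221 to 1885 TPM with DMSO over 8 genes. The 8 endothelial markers summed to 80.4 to 95.7 TPM with HFPO-TA and 89.8 to 95.1 TPM with DMSO. Platelet markers were close to absent, with all 5 under the filter and PF4 listed at 0 in all 6 libraries. Of the 6 macrophage and leukocyte markers 4 passed the filter, led by CD68, while the defining leukocyte marker PTPRC stood at 0.04 TPM or less, and the 6 summed to 52.4 to 64.4 TPM with HFPO-TA and 53.7 to 59.2 TPM with DMSO. In a bulk sample fewer cells of a type and less RNA per cell cannot be told apart. The test over 15664 genes called 77, of which 29 (37.7%) were higher and 48 lower with HFPO-TA. With upper-quartile scaling it called 17, of which 52.9% were higher.

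KNG1 and HRG lie next to each other on chromosome 3 and were both lower with HFPO-TA, while SERPINA5 and PLG were the members with the clearest higher levels. The DNA before their RefSeq starts is therefore shown, in the genes' direction. For KNG1, HRG and SERPINA5 that start lies inside the span of the GENCODE 29 gene, downstream of its first base. The stretches of HRG and SERPINA5 therefore lie within the gene, while that of KNG1 ends just before its first base. The DNA was taken from RefSeq promoters of the build GRCh38.p14, in which 31 of the 36 members had an entry. Each stretch starts 250 bases before the RefSeq start and ends before the first GENCODE 29 exon of that gene within the window. Capitals mark a match to TTGCNNAA, a simplified C/EBP site.
KNG1, chr3:186717109-186717275, plus strand: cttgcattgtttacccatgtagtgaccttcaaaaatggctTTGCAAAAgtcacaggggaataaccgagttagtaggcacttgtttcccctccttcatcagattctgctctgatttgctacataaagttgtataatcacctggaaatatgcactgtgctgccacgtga
HRG, chr3:186665764-186665951, plus strand: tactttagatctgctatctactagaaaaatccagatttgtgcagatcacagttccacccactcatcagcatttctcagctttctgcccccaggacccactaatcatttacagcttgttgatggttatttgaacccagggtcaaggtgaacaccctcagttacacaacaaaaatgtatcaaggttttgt
SERPINA5, chr14:94581176-94581368, plus strand: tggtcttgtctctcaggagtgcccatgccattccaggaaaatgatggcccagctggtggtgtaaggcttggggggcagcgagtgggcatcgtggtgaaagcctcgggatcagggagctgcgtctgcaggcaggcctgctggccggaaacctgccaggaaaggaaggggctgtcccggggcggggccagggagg
PLG, chr6:160701943-160702192, plus strand: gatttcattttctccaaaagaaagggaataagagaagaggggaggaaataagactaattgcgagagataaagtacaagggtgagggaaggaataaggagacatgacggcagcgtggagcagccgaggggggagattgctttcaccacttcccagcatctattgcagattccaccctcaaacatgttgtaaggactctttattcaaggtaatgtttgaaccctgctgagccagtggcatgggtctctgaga

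Over the full 250 bases and both strands, 5 letter patterns were searched. TTGCNNAA stood in 4 of the 31 member promoters (CPB2, KLKB1, KNG1 and PLAUR) and in 9.13% of all 27305 promoters. The TATA box TATAAA stood in 4 members (F13B, F3, HRG and PROCR) and in 11.1% of all promoters, and that of HRG began 31 bases before the RefSeq start. GTTAAT, a core of the HNF1 site, stood in 5 members (APOH, F13B, F2, KLKB1 and SERPINA10) and in 6.22% of all promoters. CAAAGTCCA, an HNF4 site, stood in PROZ alone among the members and in 0.293% of all promoters, and the nuclear receptor repeat known as DR1 stood in 0 members and in 0.0183% of all promoters. None of the 5 patterns stood in the 250 bases before SERPINA5 or PLG. These matches describe letters in a short window and say nothing about binding.

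The members spanned a wide range of levels. PLG, plasminogen, was the highest at a mean of 334 TPM with HFPO-TA and 276 TPM with DMSO. SERPINA5, F10, SERPINF2, SERPINE2 and VKORC1 also stood above 100 TPM in every library. Together the 36 genes made up 0.164% to 0.173% of all TPM with HFPO-TA and 0.164% to 0.179% with DMSO. The cells held transcripts of each arm of the system, but not of every factor. F5, F8, F9, F13A1, KLKB1 and VWF lay below the filter and received no test.

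**Figure D1:**
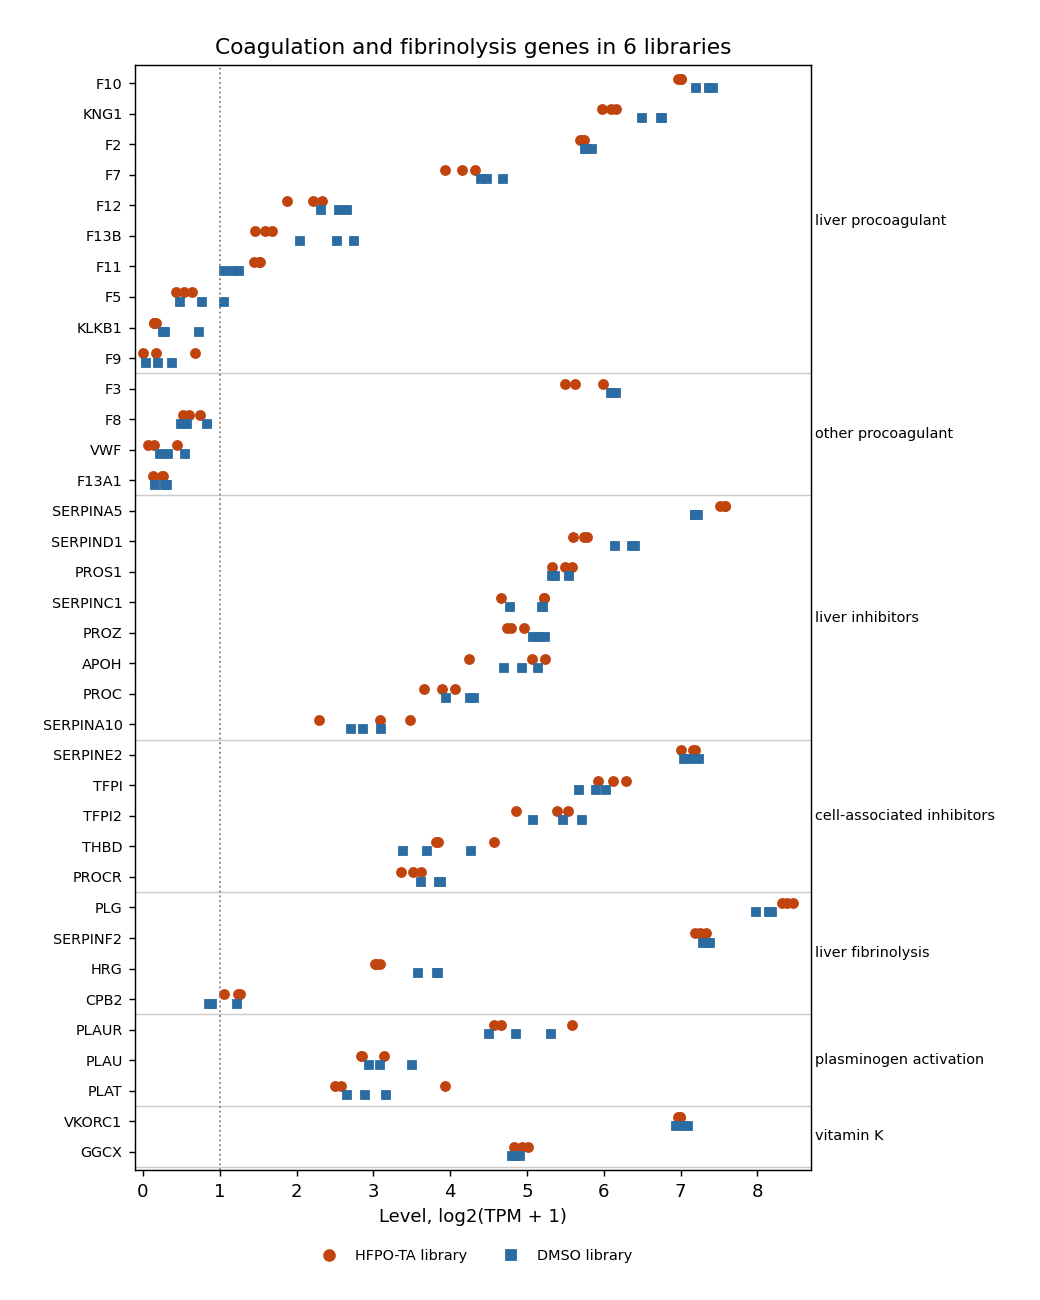
Level of each of the 36 genes in each library, as log2(TPM + 1), with HFPO-TA libraries as circles above DMSO libraries as squares and a dotted line at 1 TPM. The genes are grouped by role and ordered by mean level, and PLG, SERPINA5 and SERPINF2 have the highest means while F5, F8, F9, F13A1, KLKB1 and VWF lie near 0.

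Of the 30 tested members 3 changed, where 0.492% of all tested genes did. KNG1 and SERPIND1 fell and SERPINA5 rose, while 27 did not pass. The share of all tested genes that passed in the lower direction was 0.306% and in the higher direction 0.185%. The groups did not overlap in 13 members, against 17.9% of all tested genes. For 10 members every HFPO-TA library lay below every DMSO library, against 9.40% of all tested genes. For 3 members (SERPINA5, PLG and F11) every HFPO-TA library lay above, against 8.55% of all tested genes. At an unadjusted p under 0.05 there were 9 members lower and 2 higher, against 6.56% lower and 5.45% higher of the tested genes. The median log2 fold change of the 30 was -0.07, with 11 above 0 and 19 below, beside a median of -0.01 over all tested genes. Each log2 fold change is the HFPO-TA mean minus the DMSO mean of log2(TPM + 1), a scale on which low genes show less than their true change. No member passed with median-of-ratios or upper-quartile scaling, with a filter of 0.1 TPM or no filter, without the variance trend, or without HFPO-TA replicate 2 or 3 or DMSO replicate 2 or 3.

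**Figure D2:**
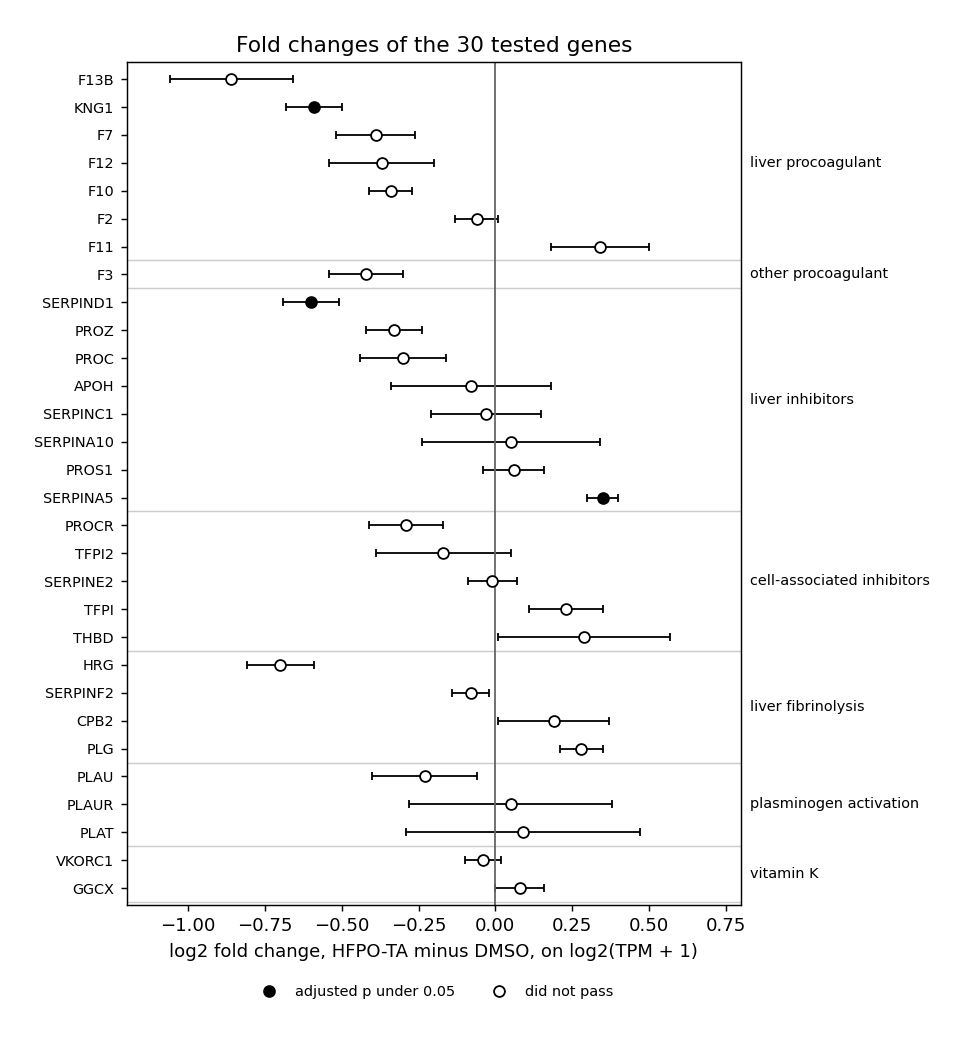
Log2 fold change (HFPO-TA minus DMSO, on log2(TPM + 1)) with its standard error for the 30 tested genes by role. Filled points passed at an adjusted p under 0.05: KNG1 at -0.59, SERPIND1 at -0.60 and SERPINA5 at 0.35.

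Among the 10 procoagulant factors that the liver secretes, KNG1 fell and no other passed, with 7 tested, 6 of them below 0 and a median log2 fold change of -0.37. For 5 of the 7 (F2, F7, F10, F13B and KNG1) the HFPO-TA libraries all lay below the DMSO libraries, against 9.40% of all tested genes, with F2 by a margin smaller than its spread. Among the 8 hepatocyte and hepatoblast markers, 5 (AFP, ALB, TTR, APOB and HNF4A) were likewise lower in every HFPO-TA library and APOA2 was higher in every one, with a median log2 fold change of -0.21 and 0 called. Their part in the values of the clotting factors was not tested. KNG1 encodes high and low molecular weight kininogen, the cofactor of contact activation and the precursor of bradykinin. It had 61.7, 70.4 and 67.3 TPM in HFPO-TA replicates 1, 2 and 3, against 89.4, 107 and 107 TPM in DMSO replicates 1, 2 and 3. The groups did not overlap, and replicate 1 was the lowest of its group in both. The log2 fold change was -0.59 (SE 0.09, adjusted p = 0.0419), and -0.63 (adjusted p = 0.0198) in replicates 2 and 3 alone. The call held without replicate 1 of either group and ended without any of the other 4 libraries (adjusted p up to 0.247). The gene value pools the isoforms for both kininogens.

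F10, factor X, on which the intrinsic and extrinsic branches converge, was the most abundant of the liver factors. It had 124, 127 and 127 TPM in HFPO-TA replicates 1, 2 and 3, against 147, 170 and 164 TPM in DMSO replicates 1, 2 and 3. The HFPO-TA libraries were close together and all lay below the DMSO libraries, by 0.34 on the log2 scale as fitted (log2 fold change -0.34, SE 0.07, adjusted p = 0.0908). In replicates 2 and 3 alone, a fit that called 222 genes against 77, the value was -0.39 (adjusted p = 0.0428). With 1 library left out the adjusted p of F10 reached 0.381. F7, factor VII, the partner of tissue factor, had 19.0, 16.8 and 14.2 TPM with HFPO-TA and 21.3, 20.1 and 24.7 TPM with DMSO. Its groups did not overlap either, but it did not pass (log2 fold change -0.39, SE 0.13, adjusted p = 0.275). Nor did F7 pass in replicates 2 and 3 alone (-0.50, adjusted p = 0.162). F13B, the carrier subunit of factor XIII, which cross-links fibrin, had 2.02, 2.20 and 1.76 TPM with HFPO-TA and 3.13, 4.78 and 5.71 TPM with DMSO. Its mean with HFPO-TA was 43.9% of its mean with DMSO, the lowest such share among the tested members, and it did not pass (log2 fold change -0.86, SE 0.20, adjusted p = 0.127). In replicates 2 and 3 alone F13B stood at -1.07 and did not pass either (adjusted p = 0.0585).

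F2, prothrombin, differed little. It had 52.2, 52.7 and 50.8 TPM with HFPO-TA and 52.8, 53.5 and 56.8 TPM with DMSO, which is a non-overlap by a margin smaller than the spread within either group (log2 fold change -0.06, SE 0.07, adjusted p = 0.771). F12, factor XII, the start of the contact pathway, averaged 3.46 ± 0.72 TPM with HFPO-TA and 4.72 ± 0.66 TPM with DMSO (SD, n = 3 each) with overlapping groups. GRK6 shares 399 exonic bases with it on the opposite strand and averaged 12.9 TPM with HFPO-TA and 14.4 TPM with DMSO. Since the strandedness of the libraries is unknown, F12 is uncertain. F11, factor XI, was the 1 tested factor of this role above 0, at 1.73 to 1.88 TPM with HFPO-TA and 1.08 to 1.37 TPM with DMSO, without overlap (log2 fold change 0.34, SE 0.16, adjusted p = 0.445). F5, the cofactor that speeds prothrombin cleavage, stood at 0.35, 0.56 and 0.45 TPM with HFPO-TA and 0.40, 0.70 and 1.07 TPM with DMSO. F9, the factor lacking in haemophilia B, was listed at 0, 0.60 and 0.13 TPM with HFPO-TA and 0.30, 0.03 and 0.15 TPM with DMSO. KLKB1, plasma prekallikrein, reached at most 0.66 TPM in any library. The last 3 lay too low for a comparison.

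The 4 procoagulant genes known largely from other cells held 1 with a level above the filter. F3, tissue factor, the membrane protein that starts clotting, had 62.4, 48.3 and 44.3 TPM with HFPO-TA and 70.4, 68.0 and 67.6 TPM with DMSO. All HFPO-TA libraries lay below the DMSO libraries, and replicate 1 was the highest of its group in both (log2 fold change -0.42, SE 0.12, adjusted p = 0.216). In replicates 2 and 3 alone the value was -0.54 (adjusted p = 0.0428). With 1 library left out the adjusted p of F3 reached 0.523. F8, the factor lacking in haemophilia A and made mainly by endothelium, stood at 0.68, 0.51 and 0.44 TPM with HFPO-TA and 0.49, 0.41 and 0.78 TPM with DMSO. VWF, its endothelial carrier, stood at 0.36, 0.11 and 0.05 TPM with HFPO-TA and 0.26, 0.17 and 0.46 TPM with DMSO. F13A1, the catalytic subunit of factor XIII, known from megakaryocytes and macrophages, reached at most 0.24 TPM. Beside this low VWF, all 8 endothelial markers passed the filter, though CDH5, TEK, CLDN5 and EMCN stayed under 5 TPM in every library.

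**Figure D3:**
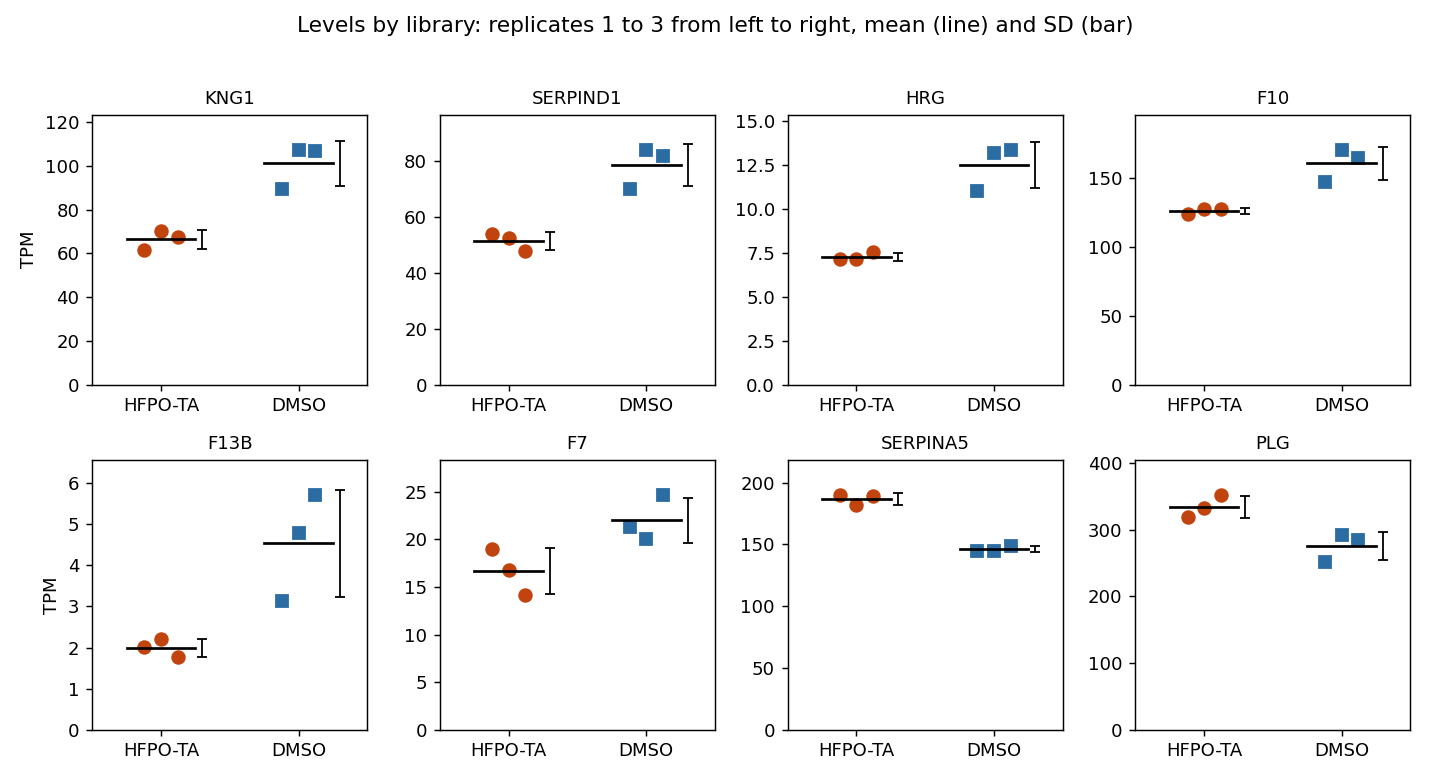
TPM by library for 8 genes, with replicates 1 to 3 from left to right in each group, HFPO-TA left of DMSO, a line at the mean and a bar for the SD. The HFPO-TA libraries lie below all DMSO libraries for KNG1, SERPIND1, HRG, F10, F13B and F7 and above them for SERPINA5 and PLG.

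The 8 liver-secreted genes grouped here as inhibitors of coagulation split in direction. The group holds SERPINA5, which also acts on the anticoagulant activated protein C. SERPIND1 fell, SERPINA5 rose and 6 did not pass, and the median log2 fold change was -0.05. SERPIND1, heparin cofactor II, which inhibits thrombin in the presence of dermatan sulphate, had 53.9, 52.4 and 47.6 TPM in HFPO-TA replicates 1, 2 and 3, against 70.1, 83.9 and 81.7 TPM in DMSO replicates 1, 2 and 3. The highest HFPO-TA library lay well below the lowest DMSO library. The log2 fold change was -0.60 (SE 0.09, adjusted p = 0.0418), and -0.72 (adjusted p = 0.0237) in replicates 2 and 3 alone. SERPIND1 lies within PI4KA on the opposite strand with 0 exonic bases shared.

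SERPINA5, protein C inhibitor, which acts on activated protein C and on plasminogen activators, had 190, 182 and 189 TPM in HFPO-TA replicates 1, 2 and 3, against 145, 145 and 149 TPM in DMSO replicates 1, 2 and 3. Both groups were tight and did not overlap. The log2 fold change was 0.35 (SE 0.05, adjusted p = 0.0419), and 0.33 (adjusted p = 0.0573) in replicates 2 and 3 alone, where the call ended. SERPINA5 shares 53 exonic bases with its neighbour SERPINA4, which averaged 20.5 TPM with HFPO-TA and 19.0 TPM with DMSO. SERPIND1 kept its call without replicate 1 of either group and SERPINA5 without HFPO-TA replicate 1. Both lost it without HFPO-TA replicate 2 or 3 or DMSO replicate 2 or 3, and SERPINA5 also without DMSO replicate 1 (adjusted p up to 0.227 for each). With the other scalings the log2 fold changes kept their sign.

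Of the proteins around protein C, PROC, protein C itself, the protease that inactivates factors V and VIII, had 11.6, 15.7 and 13.9 TPM with HFPO-TA and 14.4, 18.2 and 18.8 TPM with DMSO. These groups overlapped (log2 fold change -0.30, SE 0.14, adjusted p = 0.453). PROS1, protein S, its cofactor, averaged 43.4 ± 4.04 TPM with HFPO-TA and 41.7 ± 3.64 TPM with DMSO (SD, n = 3 each). PROZ, protein Z, a cofactor in the inhibition of factor Xa, had 25.6, 26.7 and 30.3 TPM with HFPO-TA and 34.8, 32.8 and 36.8 TPM with DMSO. Its groups did not overlap (log2 fold change -0.33, SE 0.09, adjusted p = 0.202). In replicates 2 and 3 alone PROZ stood at -0.28 (adjusted p = 0.249). The antisense gene AL137002.1 shares 68 exonic bases with PROZ and was listed at 12.1 TPM in HFPO-TA replicate 2 and at 0 in the other 5 libraries, and since the strandedness of the libraries is unknown, PROZ is uncertain. SERPINA10, the protein Z-dependent inhibitor, ran from 3.88 to 10.1 TPM with HFPO-TA and from 5.55 to 7.59 TPM with DMSO.

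SERPINC1, antithrombin, the main plasma inhibitor of thrombin and factor Xa, had 24.2, 36.2 and 36.3 TPM with HFPO-TA and 26.6, 36.0 and 35.5 TPM with DMSO. Replicate 1 was low in both groups, and the groups lay on top of each other (log2 fold change -0.03, SE 0.18, adjusted p = 0.969). APOH, beta-2-glycoprotein I, a phospholipid-binding plasma protein, ran from 18.0 to 36.7 TPM with HFPO-TA and from 25.1 to 34.4 TPM with DMSO.

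None of the 5 cell-associated or widely made inhibitors passed. SERPINE2, protease nexin 1, a thrombin and urokinase inhibitor on cell surfaces, was the highest of them at 128, 145 and 142 TPM with HFPO-TA and 131, 150 and 138 TPM with DMSO. The groups interleaved (log2 fold change -0.01, SE 0.08, adjusted p = 0.965). TFPI, the inhibitor of the tissue factor and factor VIIa complex, ran from 59.5 to 76.9 TPM with HFPO-TA and from 50.3 to 64.5 TPM with DMSO, with overlapping groups (log2 fold change 0.23, SE 0.12, adjusted p = 0.494). TFPI2, its relative in the extracellular matrix, averaged 38.0 ± 9.04 TPM with HFPO-TA and 42.6 ± 9.49 TPM with DMSO. THBD, thrombomodulin, which turns thrombin towards protein C, averaged 16.4 ± 5.47 TPM with HFPO-TA and 13.3 ± 4.55 TPM with DMSO. PROCR, the endothelial protein C receptor, had lower values in all HFPO-TA libraries (9.25 to 11.29 TPM) than in the DMSO libraries (11.33 to 13.7 TPM), though the groups nearly touched.

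None of the 4 fibrinolysis genes that the liver secretes passed, while PLG stood higher and HRG lower in every HFPO-TA library. PLG, the precursor of plasmin, had 318, 333 and 352 TPM in HFPO-TA replicates 1, 2 and 3, against 251, 291 and 284 TPM in DMSO replicates 1, 2 and 3. All HFPO-TA libraries lay above the DMSO libraries (log2 fold change 0.28, SE 0.07, adjusted p = 0.170). In replicates 2 and 3 alone PLG stood at 0.25 and did not pass (adjusted p = 0.0936). The plasminogen-like genes PLGLB1 and PLGLB2 averaged 3.61 and 3.05 TPM with HFPO-TA and 4.14 and 5.33 TPM with DMSO, and reads could be shared with them. HRG, histidine-rich glycoprotein, which binds plasminogen and heparin, had 7.17, 7.12 and 7.53 TPM in HFPO-TA replicates 1, 2 and 3, against 10.99, 13.2 and 13.4 TPM in DMSO replicates 1, 2 and 3. Its mean with HFPO-TA was 58.1% of that with DMSO, and it missed the threshold narrowly (log2 fold change -0.70, SE 0.11, adjusted p = 0.0506). In replicates 2 and 3 alone HRG stood at -0.78 (adjusted p = 0.0431). With 1 library left out its adjusted p reached 0.274.

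SERPINF2, alpha-2-antiplasmin, the plasmin inhibitor, averaged 152 ± 7.70 TPM with HFPO-TA and 161 ± 4.70 TPM with DMSO (SD, n = 3 each). The level of PLG thus stood higher with HFPO-TA in every library while that of its inhibitor overlapped between the groups. CPB2, which encodes the carboxypeptidase TAFI that protects fibrin from plasmin, ran from 1.08 to 1.40 TPM with HFPO-TA and from 0.82 to 1.33 TPM with DMSO, so the groups overlapped.

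The summed levels of the 3 liver-secreted roles did not differ in the same way. The procoagulant factors summed to 265, 276 and 267 TPM in HFPO-TA replicates 1, 2 and 3, against 319, 363 and 366 TPM in DMSO replicates 1, 2 and 3. The inhibitors summed to 366, 396 and 411 TPM with HFPO-TA and 361, 404 and 397 TPM with DMSO. The fibrinolysis genes summed to 472, 492 and 521 TPM with HFPO-TA and 429, 462 and 460 TPM with DMSO. The first sum lay lower in every HFPO-TA library, the second overlapped and the third lay higher in every HFPO-TA library. Without PLG the fibrinolysis sum was 161 ± 8.02 TPM with HFPO-TA and 175 ± 3.42 TPM with DMSO, so its higher level was that of PLG. Without KNG1 and F10, its most abundant genes, the procoagulant sum was 76.7 ± 4.12 TPM with HFPO-TA and 88.1 ± 6.30 TPM with DMSO (SD, n = 3 each), still lower in every HFPO-TA library but by a much smaller amount. Of the inhibitor sum SERPINA5, the member called higher, held 187 of 391 TPM with HFPO-TA and 146 of 387 TPM with DMSO on average. The contrast between the 3 sums thus leaned on a few abundant genes. The sums also pool opposing actions, since PLG is added to its inhibitor SERPINF2 and to CPB2, whose protein protects fibrin from plasmin. Likewise SERPINA5, which acts on activated protein C, is added to PROC. These sums are descriptions and carry no test.

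**Figure D4:**
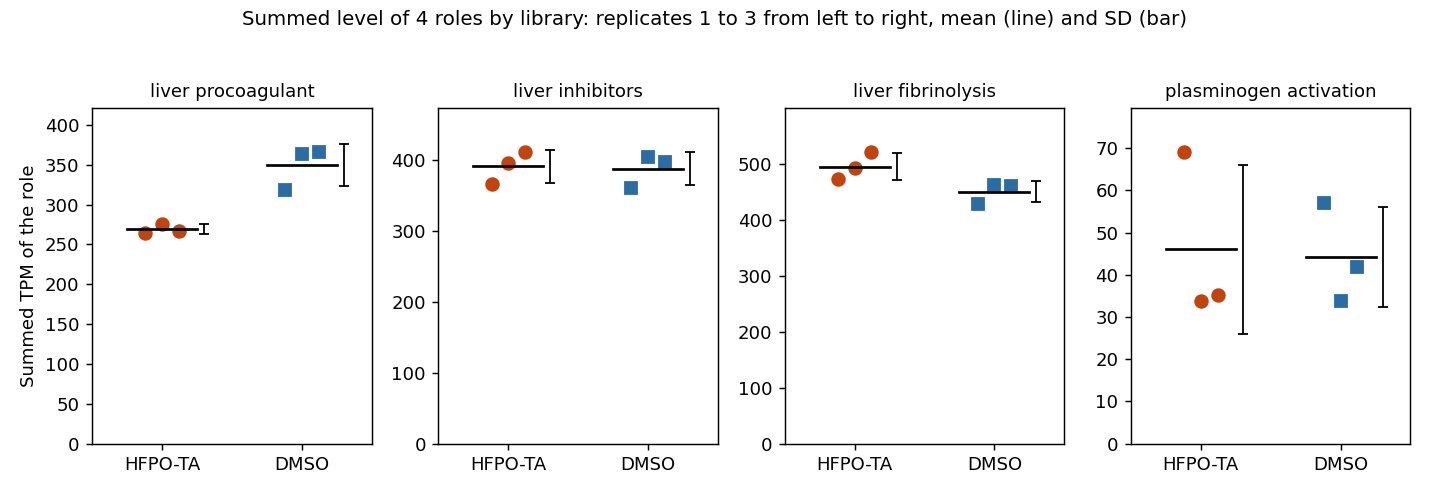
Summed TPM of the genes of 4 roles by library, with replicates 1 to 3 from left to right, HFPO-TA left of DMSO, a line at the mean and a bar for the SD. The procoagulant sum is 269 TPM with HFPO-TA and 350 TPM with DMSO on average, the inhibitor sums overlap, and the plasminogen activation sum is highest in replicate 1 of both groups.

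The 3 genes of plasminogen activation on cells overlapped between the groups, and none passed. PLAT, tissue plasminogen activator, had 14.2, 4.95 and 4.65 TPM in HFPO-TA replicates 1, 2 and 3 and 7.93, 5.33 and 6.44 TPM in DMSO replicates 1, 2 and 3. Single libraries set its direction: the log2 fold change was 0.09 (SE 0.38, adjusted p = 0.953) with all libraries, -0.37 without HFPO-TA replicate 1 and -0.03 without DMSO replicate 2. PLAUR, the receptor that holds urokinase on the cell surface, had 47.1, 22.7 and 24.3 TPM with HFPO-TA and 38.9, 21.7 and 28.0 TPM with DMSO. Its log2 fold change was 0.05 (SE 0.33, adjusted p = 0.975), with -0.28 without HFPO-TA replicate 1 and -0.15 without DMSO replicate 2. PLAU, urokinase, had 7.80, 6.17 and 6.23 TPM with HFPO-TA and 10.3, 6.66 and 7.46 TPM with DMSO (log2 fold change -0.23, SE 0.17, adjusted p = 0.677), and its log2 fold change was -0.06 without DMSO replicate 1. In all 3 genes replicate 1 was the highest of its group in both groups.

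That order was seen in 5 of the 30 tested members (F3, THBD, PLAT, PLAU and PLAUR), none of them from the 3 liver-secreted roles, and in 30.0% of all tested genes. The opposite order, with replicate 1 lowest in both groups, was seen in 14 members and in 9.31% of all tested genes. Of these 14, F10, KNG1, SERPINC1, SERPINA10, PROC, PROS1, APOH, PLG and CPB2 came from the liver-secreted roles, and SERPINE2, TFPI, TFPI2, PROCR and GGCX from the other roles. Replicate 1 of each group also carries another letter in the file headers than replicates 2 and 3, which the labels do not explain. The stromal markers moved with the first order. They summed to 2161, 1027 and 1000 TPM in HFPO-TA replicates 1, 2 and 3 and to 1885, 1221 and 1407 TPM in DMSO replicates 1, 2 and 3, and 7 of the 8 were highest in replicate 1 in both groups. Of the 8 hepatocyte and hepatoblast markers 7 were lowest in replicate 1 in both groups. The part of these cell markers in the values of the members was not tested.

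**Figure D5:**
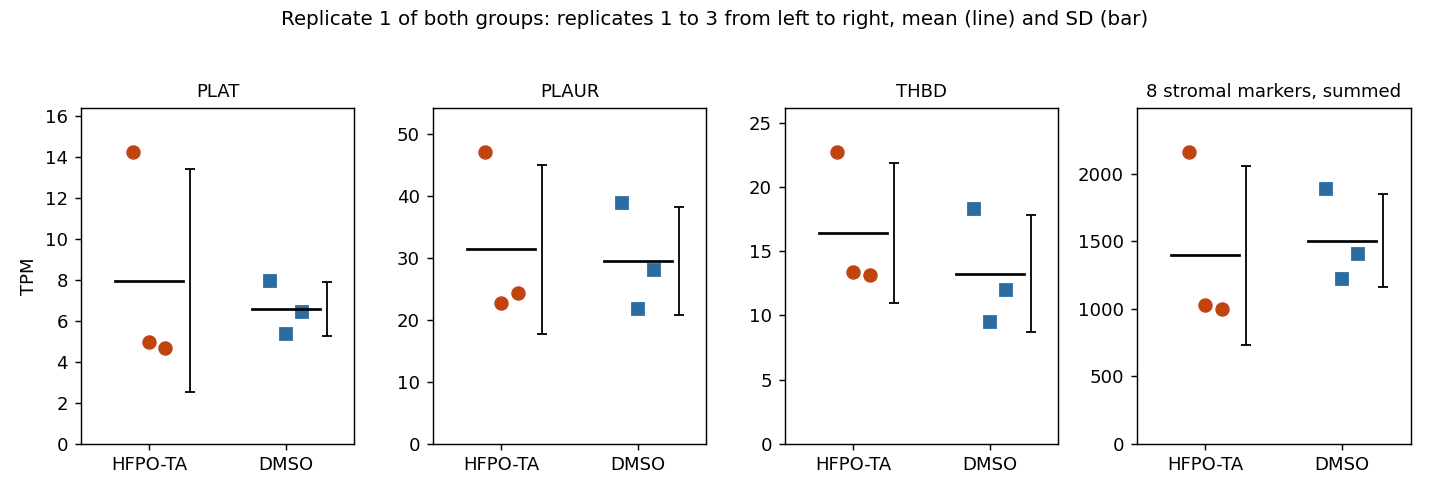
TPM by library for PLAT, PLAUR and THBD and the summed TPM of 8 stromal markers, with replicates 1 to 3 from left to right, HFPO-TA left of DMSO, a line at the mean and a bar for the SD. Replicate 1 is the highest library of its group in all 4 panels and both groups.

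Both enzymes of the vitamin K cycle had overlapping groups and did not pass. VKORC1, the epoxide reductase that warfarin blocks, had 126, 124 and 127 TPM with HFPO-TA and 121, 136 and 131 TPM with DMSO (log2 fold change -0.04, SE 0.06, adjusted p = 0.871). The gene AC135050.2 shares 761 exonic bases with VKORC1 on the same strand and averaged 20.6 TPM with HFPO-TA and 23.5 TPM with DMSO, so reads may be split between them. GGCX, the carboxylase, ran from 27.4 to 31.4 TPM with HFPO-TA and from 26.8 to 29.2 TPM with DMSO. It shares 558 exonic bases with MAT2A on the opposite strand, which averaged 48.4 TPM with HFPO-TA and 48.6 TPM with DMSO. GGCX is therefore uncertain on the same ground as F12. Of the 7 members with a Gla domain 6 were tested (F2, F7, F10, PROC, PROS1 and PROZ), 0 passed, and 5 lay below 0 with a median log2 fold change of -0.31.

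Some members share a place in the genome, given here from GENCODE 29 on GRCh38. HRG (chromosome 3, 186660216 to 186678240) and KNG1 (186717276 to 186744410) lie on the same strand, 39.0 kb apart with 0 coding genes between, and both were lower with HFPO-TA in every library. The antisense gene AC068631.1 shares 447 exonic bases with HRG and 722 with KNG1. It had 0.71, 3.19 and 5.45 TPM in HFPO-TA replicates 1, 2 and 3 and 3.72, 2.19 and 2.37 TPM in DMSO replicates 1, 2 and 3. Since the strandedness of the libraries is unknown, HRG, the lower of the 2 members in level, is uncertain. F7, F10 and PROZ follow each other on chromosome 13 with gaps of 2.1 and 9.1 kb, and in each of the 3 the HFPO-TA libraries all lay below the DMSO libraries, with log2 fold changes of -0.39, -0.34 and -0.33. None of the 3 passed, and PROZ is uncertain, as given above. Of all tested genes 9.40% were likewise lower in every HFPO-TA library. Whether a shared place has a part in these values was not tested. KLKB1 and F11, 7.5 kb apart on chromosome 4, were both low in level. SERPIND1 lies on chromosome 22 from 20773879 to 20787720 and SERPINA5 on chromosome 14 from 94561442 to 94593120.

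Beyond the members, 50 other genes of haemostasis in 7 lists were examined, of which 43 were tested. With limma 0 of them passed, and at an unadjusted p under 0.05 there were 4 higher and 6 lower, against 5.45% higher and 6.56% lower of all tested genes. Their median log2 fold change was -0.08, with 14 above 0 and 29 below. VTN, vitronectin, a plasma and matrix protein that stabilises plasminogen activator inhibitor, came closest, at 700, 743 and 763 TPM with HFPO-TA and 911, 1053 and 1094 TPM with DMSO. These groups lay far apart relative to their spread (log2 fold change -0.47, SE 0.08, adjusted p = 0.0506). S100A10, which with annexin A2 forms a plasminogen receptor, averaged 1415 ± 63.6 TPM with HFPO-TA and 1704 ± 18.8 TPM with DMSO (log2 fold change -0.27, SE 0.05, adjusted p = 0.0678).

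In the other lists the gene with the smallest p was ASGR2, a subunit of the receptor that clears desialylated plasma proteins, at 33.3 ± 1.94 TPM with HFPO-TA and 47.0 ± 6.07 TPM with DMSO (adjusted p = 0.116). A2M, the broad inhibitor alpha-2-macroglobulin, stood at 189 ± 41.6 TPM with HFPO-TA and 277 ± 28.1 TPM with DMSO (adjusted p = 0.244). F2R, the thrombin receptor PAR1, stood at 30.5 ± 0.39 TPM with HFPO-TA and 34.8 ± 1.04 TPM with DMSO (adjusted p = 0.353). In these 3 genes, each picked for its small p, all HFPO-TA libraries lay below the DMSO libraries. Of the 43 tested genes of all lists, 7 lay below in this way, against 9.40% of all tested genes. Another 3 lay above, against 8.55%. NQO1, a quinone reductase, stood at 97.1 ± 17.5 TPM with HFPO-TA and 77.4 ± 12.4 TPM with DMSO (adjusted p = 0.496). GAS6, a Gla protein related to protein S, stood at 98.5 ± 17.0 TPM with HFPO-TA and 111 ± 8.53 TPM with DMSO (adjusted p = 0.640). Both of these overlapped between the groups. All means in this paragraph are given with the SD of 3 libraries.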

How the data were processed

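RNA sequencing values of 6 libraries were used, 3 HFPO-TA and 3 DMSO, grouped by their titles. The authors deposited 1 value per gene and library. Their header says FPKM, but each library has nearly the same sum, so the deposited values were treated as TPM. Per the submitters' processing notes, the tools included RSEM, Bowtie2 and HISAT, with GRCh38.p13 as the genome. Not given in the sources used here: tool versions and roles, annotation, kit and strandedness. No count test was possible, and the depth is unknown.

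After the transform log2(TPM + 1), the filter (1 TPM in at least 3 libraries) left 15664 genes. All of them entered a limma fit (version 3.58.1, R 4.3.3) with treatment as the only term and a trended, robust variance estimate. A gene was called where its 2-sided p, adjusted by Benjamini-Hochberg over all tested genes, was under 0.05. On simulated data the script recovered 26.4% of log2 changes of 0.5, 72.0% of changes of 1.0 and 93.7% of changes of 2.0. These changes were planted only in genes above a minimum mean level, so the shares do not cover the lowest tested members. A member that did not pass may therefore still differ, and not only by a small amount.

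The members and lists were chosen with earlier results of these data known, so counts over them are descriptions. Values of all libraries are given for called members, members with an unadjusted p under 0.01, the highest member of each role and 14 genes named in the rule. Genes of the other lists are those with the smallest p. Positions are from GENCODE 29 and promoters from RefSeq (GRCh38.p14). For 28 of 31 member promoters the last 25 bases of the table entry stood in a GENCODE transcript, which checked the direction. Figures were drawn with matplotlib 3.10.9. The 17 alternatives covered pseudocount, filter, variance, scaling, replicate terms and libraries left out.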

Additional observations from a re-analysis of the deposited data

How the results depend on the processing

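Against 77 changed genes, 3 called members and 0 called genes of the other haemostasis lists, the counts were as follows. Without a filter they were 10, 0 and 0. With a minimum of 0.1 TPM they were 29, 0 and 0, and with 5 TPM 130, 4 and 2. Without the variance trend they were 11, 0 and 0. With median-of-ratios scaling they were 30, 0 and 0, and with upper-quartile scaling 17, 0 and 0. A term for replicate 1 gave 207, 6 and 4 (the members F10, HRG, KNG1, PLG, SERPINA5 and SERPIND1), and replicates 2 and 3 alone gave 222, 5 and 3. Leaving out 1 library gave 6 to 291 changed genes, 0 to 5 members and 0 to 3 other genes. Of these 6 fits, those without HFPO-TA replicate 2 or 3 or DMSO replicate 2 or 3 called 0 members. Pseudocounts of 0.1 and 0.5 kept the 3 members. The cause of these shifts was not tested.

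With the replicate block 30 genes changed, and KNG1 was the 1 member called (adjusted p = 0.0423), with 1 gene of the other lists. SERPIND1 stood at an adjusted p of 0.0809 and SERPINA5 at 0.0777 there. Deviations of same-numbered libraries correlated at 0.184, 0.123 and 0.028 over all tested genes, so the numbers were not taken to pair the libraries.

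Of the 30 tested members 22 kept their sign in every setting. The sign turned in 8 that were not called. In replicates 2 and 3 alone the log2 fold change was 0.02 for SERPINC1, 0.11 for APOH, -0.24 for PLAT and -0.07 for PLAUR. SERPINE2 stood at 0.0041 with median-of-ratios and 0.01 with upper-quartile scaling. With 1 library left out the values ran from -0.17 to 0.16 for SERPINC1, -0.21 to 0.38 for SERPINA10, -0.0015 to 0.13 for PROS1, -0.27 to 0.22 for APOH, -0.06 to 0.04 for SERPINE2, -0.34 to 0.04 for TFPI2, -0.37 to 0.35 for PLAT and -0.28 to 0.26 for PLAUR. The median of the liver fibrinolysis genes was -0.08 with the 5 TPM filter, which removes CPB2, against 0.05.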

Other observations

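Regulators of liver genes gave values on both sides. Of 12 tested, 0 passed with limma, and at an unadjusted p under 0.05 there were 3 higher and 3 lower, against 5.45% higher and 6.56% lower of all tested genes. CEBPB, an inducible C/EBP factor, stood at 23.6, 26.7 and 41.9 TPM with HFPO-TA and 21.5, 14.4 and 15.2 TPM with DMSO. LMAN1 and MCFD2, which form the receptor that exports factors V and VIII from the endoplasmic reticulum, averaged 153 and 112 TPM with HFPO-TA and 128 and 102 TPM with DMSO. Their HFPO-TA libraries all lay above their DMSO libraries, and neither passed. CEBPB, LMAN1 and MCFD2 were chosen for mention after their values were seen.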
